A study of Rattus norvegicus with 6 samples.

Results

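Genes that oxidise, build, carry and dephosphorylate lipids were compared between cultured tumor cells of the rat esophagus and normal esophageal cells. The genes were chosen by symbol alone: every named gene on the array whose symbol begins with the stem of a family of lipid enzymes, binding proteins or apolipoproteins, Apoa4 excepted. This gave 42 genes among 3158 named genes, and all 42 had a value on every array. They were measured by 59 clones (118 spots), 29 of them by 1 clone. A shared stem does not make a shared function, and 4 of the 42, Cptp, Apobec2, Apold1 and Apool, are not enzymes or carriers of fatty acids and are described apart.

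The tumor cells were the cell lines JA, JB and Amy, which the labels call reflux induced, reflux being the return of stomach contents into the esophagus. The normal RNA was a 1:1 mixture from 2 normal esophageal cell lines, Normal1 and Normal2, and every array carried this same pool. Each tumor line was set against the pool on 2 arrays, with the line in Cy3 on the first and in Cy5 on the second. The labels name no strain, age, culture conditions or origin of the normal lines. Both arrays of a tumor line share its RNA label, so the lines and not the arrays are the replicates (n = 3 lines). Values are log2 ratios of line over pool: 1 stands for a 2-fold higher and -1 for a 2-fold lower level in the line. The direction rests on the order of names in the sample titles and is likely rather than settled, so that a turned sign would exchange higher and lower for every gene. A ratio gives no absolute level, and levels of different genes were not compared. In the deposited bulk RNA, fewer cells of a type and less RNA per cell cannot be told apart.

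Fatty acids are used only after acyl-CoA synthetases have joined them to coenzyme A. Carnitine palmitoyltransferases then pass long chains into the mitochondrion, where a repeating spiral of a dehydrogenase, a hydratase, a second dehydrogenase and a thiolase shortens them, while very long and branched chains are first shortened in peroxisomes. In the opposite direction, elongases and desaturases remodel new fatty acids with NADPH from enzymes such as malic enzyme, and a separate chain of reactions builds cholesterol. In squamous epithelium such as that of the esophagus, lipids also form membranes and ceramides of the barrier.

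Most lipid genes were lower in the tumor lines. By limma, with p-values adjusted over 7180 features and a threshold of 0.05, 24 of the 42 genes were called lower (57.1%; 32.8% of all features were called lower) and 4 were called higher (9.52%; 20.7% of all features were called higher). The median over the 42 genes was -0.61, beside -0.12 over all features. With each array centred on its median, which moves the median of all features to 0.00, 22 of the 42 genes were lower and 5 higher, against 27.6% and 25.7% of all features. Of the 28 called genes, 27 had 1 sign on all 6 arrays and 1, Apoa2, did not. Among all features, 1487 were called higher and 2356 lower, and 3512 of these called features had 1 sign on all 6 arrays. A mean at or beyond a 2-fold change was reached by 13 of the genes called lower and by 1 called higher, Dhcr7. Over all 7180 features, 1060 were called lower and 515 called higher with a mean of that size. These p-values measure the spread of 3 lines around 1 pool and leave out the spread of the pool itself. When a spread like that of 2 averaged lines was added for the pool, 19 genes were lower and 3 higher, beside 18.1% and 9.29% of all features. With variances not moderated, 9 were lower and 2 higher, beside 10.3% and 4.18% of all features.

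**Figure D1:**
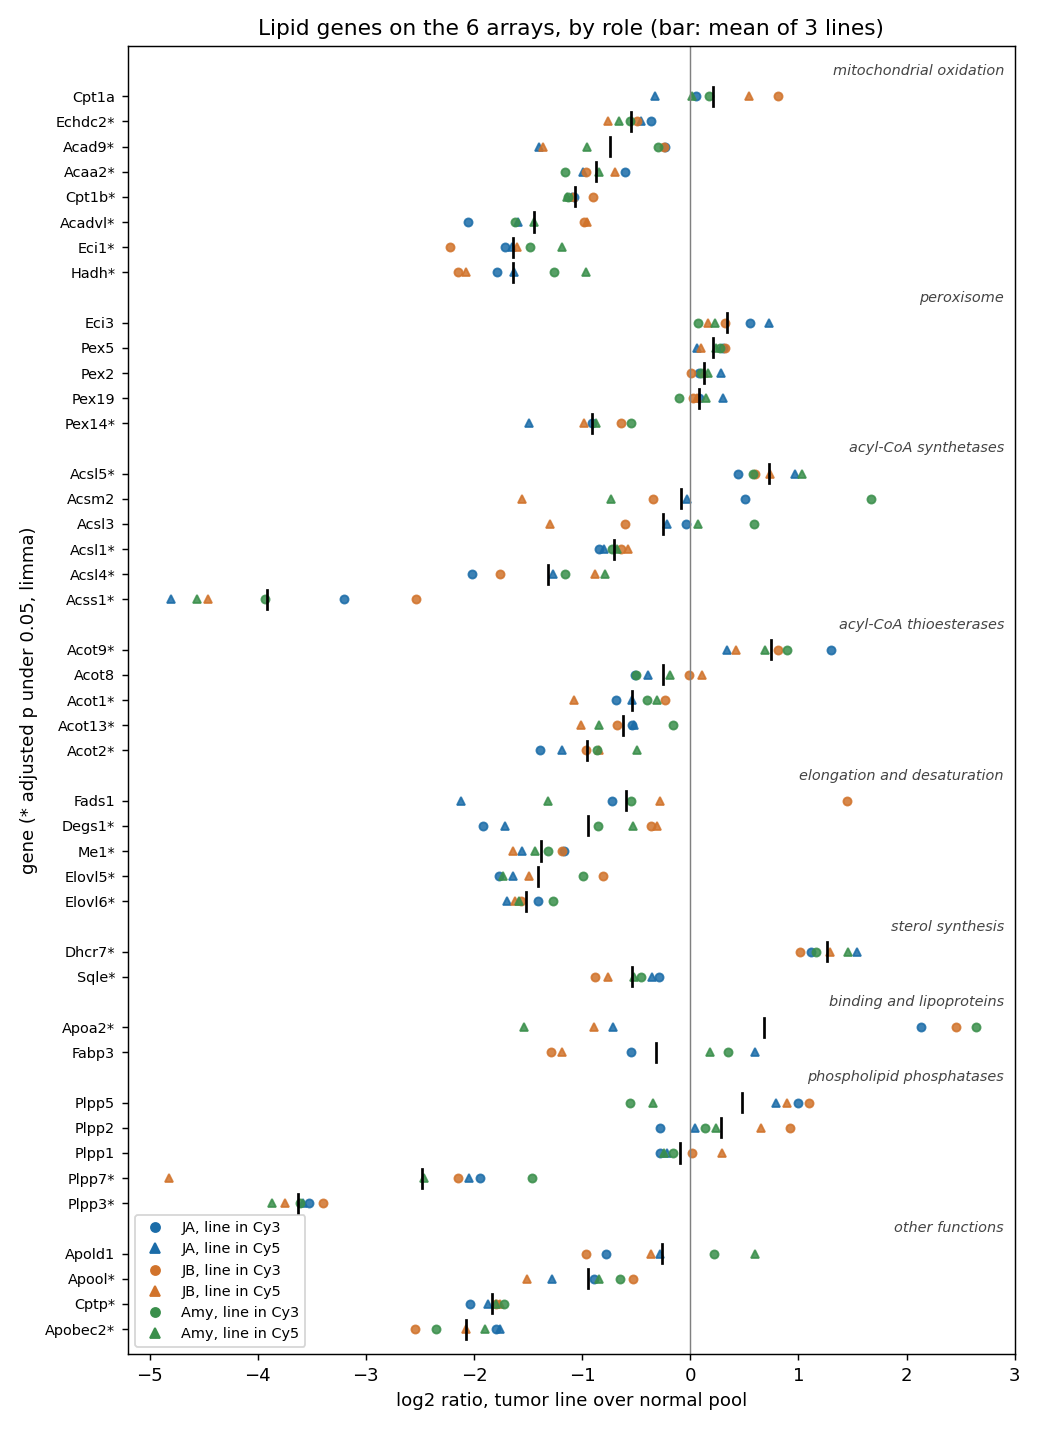
Log2 ratio of tumor line over normal pool (x axis) of the 42 lipid genes (y axis, grouped by role), with 1 point for each of the 6 arrays, coloured by line and shaped by the dye of the line; the black bar is the mean of the 3 lines and an asterisk marks an adjusted p under 0.05 in limma. Points of the mitochondrial oxidation genes other than Cpt1a lie left of 0 on every array, Dhcr7 lies at 1.02 or above on every array, and Apoa2 splits by dye.

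Counts of called genes by role, given from here on, rest on few genes each. They stand beside 32.8% of all features called lower and 20.7% called higher. Genes of mitochondrial fatty acid oxidation were lower in 7 of 8 cases, with a median of -0.97, and none was higher. Among them Acadvl, Hadh and Acaa2 of the spiral itself, and Eci1 of the side step for unsaturated chains, fell, with means between -1.64 and -0.87. Decr1, a reductase of the same side step that the choice by symbol left out, was not called at -0.06 ± 0.42 (adjusted p = 0.809). Cpt1a, the liver-type carnitine palmitoyltransferase that admits long chains, did not pass at 0.21 ± 0.42 (SD, n = 3 lines; adjusted p = 0.378).

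In the following, the first value of a pair is from the array that carried the line in Cy3, the second from its dye swap. Acadvl, the very long-chain acyl-CoA dehydrogenase that opens the spiral, read -2.06 and -1.59 in JA, -0.99 and -0.95 in JB, and -1.62 and -1.45 in Amy. All 6 values lay below the pool, and those of JB were nearest to it. The mean was -1.44 ± 0.43 (SD, n = 3 lines), 2.72-fold lower, with a limma adjusted p of 0.00333. Hadh, the dehydrogenase of the third step for shorter chains, stood at -1.78 and -1.63 in JA, -2.15 and -2.07 in JB, and -1.26 and -0.96 in Amy. Here JB was the lowest line and Amy the highest, and no value reached 0. Its mean was -1.64 ± 0.50, 3.12-fold lower (adjusted p = 0.00307), and its 2 clones gave -1.46 and -1.83. Eci1, the isomerase that lets unsaturated chains enter the spiral, gave -1.72 and -1.65 in JA, -2.23 and -1.60 in JB, and -1.48 and -1.19 in Amy, all lower than the pool, with a mean of -1.64 ± 0.29, also 3.12-fold lower (adjusted p = 0.00122). Acaa2, the thiolase of the last step, was lower at -0.87 ± 0.11 (adjusted p = 0.00343), with 3 clones at -0.47, -1.31 and -0.84.

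Cpt1b, the muscle-type carnitine palmitoyltransferase, read -1.08 and -1.09 in JA, -0.90 and -1.08 in JB, and -1.13 and -1.14 in Amy. The lines and dyes nearly coincided, and the mean was -1.07 ± 0.07, 2.10-fold lower (adjusted p = 0.00179). That close range hides a difference between its 2 clones, which stood at -1.70 and -0.44, and the second alone did not pass (adjusted p = 0.0684). Acad9, a relative of Acadvl known also as an assembly factor of respiratory complex I, was called lower at -0.75 ± 0.10 (adjusted p = 0.00527). Its size followed the dye: the 3 arrays with the line in Cy3 averaged -0.25, and the 3 with the line in Cy5 averaged -1.24. On the Cy3 arrays alone it did not pass. Echdc2, a gene with an enoyl-CoA hydratase domain, was lower at -0.55 ± 0.12 (adjusted p = 0.0146), a call lost without JA (-0.62, adjusted p = 0.0545) or without Amy (-0.52, adjusted p = 0.0742). Its 2 clones stood at -0.82 (adjusted p = 0.00491) and -0.28, and the second alone did not pass (adjusted p = 0.122).

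The sequence before the start of 3 of these falling oxidation genes, and of Dhcr7, the gene that rose most, is shown, chosen after the ratios were seen, because oxidation genes are textbook targets of nuclear receptors of the PPAR family, whose binding element is a pair of AGGTCA-like blocks, while GC boxes (GGGCGG) are common in promoters of metabolic genes. Each line holds the 250 bases before 1 start site per gene in a RefSeq promoter table (build GRCr8), 5′ to 3′ on the strand of the gene, with every AGGTCA or GGGCGG of either strand in capitals; adjoining or overlapping matches run together.
Acadvl, chr10:55236706-55236955 (minus strand): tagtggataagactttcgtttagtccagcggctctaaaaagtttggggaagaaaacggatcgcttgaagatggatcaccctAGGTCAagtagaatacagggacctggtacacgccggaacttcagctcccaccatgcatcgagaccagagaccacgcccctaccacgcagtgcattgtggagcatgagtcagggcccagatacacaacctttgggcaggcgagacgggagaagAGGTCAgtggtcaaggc
Eci1, chr10:13961000-13961249 (plus strand): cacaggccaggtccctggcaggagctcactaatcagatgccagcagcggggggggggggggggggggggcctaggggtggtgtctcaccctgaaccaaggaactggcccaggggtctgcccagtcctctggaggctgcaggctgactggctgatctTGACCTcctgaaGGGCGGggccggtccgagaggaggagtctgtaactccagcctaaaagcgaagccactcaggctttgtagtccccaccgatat
Hadh, chr2:222504447-222504696 (minus strand): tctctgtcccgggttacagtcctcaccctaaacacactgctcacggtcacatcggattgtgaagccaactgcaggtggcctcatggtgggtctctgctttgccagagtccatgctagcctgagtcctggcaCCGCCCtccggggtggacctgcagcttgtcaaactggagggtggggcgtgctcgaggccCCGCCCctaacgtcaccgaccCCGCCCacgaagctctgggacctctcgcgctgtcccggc
Dhcr7, chr1:208444184-208444433 (plus strand): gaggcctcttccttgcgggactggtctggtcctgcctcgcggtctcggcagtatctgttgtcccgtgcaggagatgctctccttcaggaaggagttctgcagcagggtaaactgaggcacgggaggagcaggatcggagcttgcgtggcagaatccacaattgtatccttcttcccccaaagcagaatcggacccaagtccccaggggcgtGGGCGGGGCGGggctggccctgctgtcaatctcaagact

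Such windows were found for 33 of the 42 genes. AGGTCA, searched on both strands, occurred in 5 of the 33 (Acadvl, Acot8, Degs1, Echdc2 and Eci1) and in 14.1% of 33469 windows of all genes in the table. GGGCGG occurred in 18 of the 33 and in 30.5% of all windows, but the windows of the lipid genes were also richer in G and C, with a median of 56.4% against 51.2%. The core TCACNCCAC of the sterol regulatory element was found in 1 of the 33, Acot13, and in 0.974% of all windows. The start site in that table is not always the outer end of the gene: 15 of the 33 windows lay partly or wholly inside the RefSeq gene interval, among them that of Acadvl by 81 bases, while those of Eci1, Hadh and Dhcr7 lay outside it. In Acadvl the AGGTCA blocks began 169 and 17 bases before the start site of the table. These exact matches lie apart, and the second lies inside the gene interval. The second is followed, after a single base, by tggtca, which differs from AGGTCA in its first letter. Whether they form a paired element was not tested. In Eci1 the block lay on the opposite strand. The search was for the single exact block AGGTCA and not for variants of it or for a pair of blocks. A match is a string of letters and not a shown site, and binding of a factor was not measured.

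Of the 5 peroxisomal genes 1 was called lower and none higher. Pex5, the receptor that brings enzymes into the organelle, stood at 0.21 ± 0.04 (adjusted p = 0.161), the membrane-protein chaperone Pex19 at 0.08 ± 0.09 (adjusted p = 0.566), and Pex2, part of the ligase that recycles the receptor, at 0.13 ± 0.06 (adjusted p = 0.384). The interval for Pex2 ran from -0.16 to 0.41 (95% confidence), so a 2-fold change of the mean lay outside it. Pex14, the docking partner of Pex5 on the membrane, was the exception: it read -0.91 and -1.49 in JA, -0.64 and -0.98 in JB, and -0.55 and -0.87 in Amy. All 6 values were negative, JA was lowest, and the mean was -0.91 ± 0.26, 1.87-fold lower (adjusted p = 0.00546). The enoyl-CoA isomerase Eci3 was positive on all arrays, with a mean of 0.34 ± 0.26 that did not pass (adjusted p = 0.100) and did with arrays centred on their medians (0.47, adjusted p = 0.0468). The mean of Pex19 covers clones that disagreed, at 0.73, 0.09 and -0.56, of which the first alone would be called higher (adjusted p = 0.00546) and the last lower (adjusted p = 0.0165). Of the 2 clones of Pex5, 1 would pass by itself at 0.46 (adjusted p = 0.0298) and the other stood at -0.03. Among the other lipid genes described below, the peroxisomal Abcd3, Ehhadh and Cat were lower, Cat at -1.145 ± 0.09 (adjusted p = 0.00157). Hsd17b4 and Crot, also peroxisomal, were not called.

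Among the synthetases that activate fatty acids, 3 of 6 were lower and 1 higher. Acss1, the mitochondrial enzyme that makes acetyl-CoA from acetate, had the lowest mean of the 42 genes. It read -3.20 and -4.80 in JA, -2.54 and -4.46 in JB, and -3.94 and -4.56 in Amy. The array with the line in Cy5 was the lower of each pair. The mean was -3.92 ± 0.38 (SD, n = 3 lines), 15.1-fold lower (adjusted p = 1.49e-04), and the orientations averaged -3.23 and -4.61. Acsl4, a long-chain synthetase with a preference for arachidonic acid, stood at -2.02 and -1.27 in JA, -1.76 and -0.88 in JB, and -1.16 and -0.79 in Amy. In Acsl4 the Cy3 array was the lower of each pair, and the mean was -1.31 ± 0.33, 2.48-fold lower (adjusted p = 0.00273). Acsl1, the main long-chain synthetase of oxidative tissues, fell less, to -0.71 ± 0.11 (adjusted p = 0.00621), and missed the threshold without JA (-0.65, adjusted p = 0.0506).

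Acsl5, a long-chain synthetase of mitochondria and the endoplasmic reticulum, was higher. Its values were 0.44 and 0.97 in JA, 0.60 and 0.74 in JB, and 0.58 and 1.03 in Amy, all above the pool, with a mean of 0.73 ± 0.07, 1.65-fold higher (adjusted p = 0.00525); its 2 clones gave 0.59 and 0.86. Acsl3, a long-chain synthetase of lipid droplets, did not pass at -0.25 ± 0.65 (adjusted p = 0.446). Nor did the medium-chain synthetase Acsm2, at -0.08 ± 0.76 (adjusted p = 0.830), whose values ran from -1.55 to 1.67 and whose average was 0.61 over the Cy3 arrays of the lines and -0.77 over their Cy5 arrays.

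Thioesterases, which free fatty acids from coenzyme A again, were lower in 3 of 5 cases and higher in 1. The mitochondrial Acot2 had the largest fall, reading -1.39 and -1.19 in JA, -0.97 and -0.84 in JB, and -0.86 and -0.49 in Amy, with a mean of -0.96 ± 0.31 (adjusted p = 0.00606). Its cytosolic neighbor Acot1 averaged -0.54 ± 0.16 (adjusted p = 0.0179) and Acot13, at the mitochondrial surface, -0.63 ± 0.19 (adjusted p = 0.0126). The call of Acot1 was also lost with dye orientation paired as a replicate block (adjusted p = 0.0614). Both calls were lost without JA (Acot1 at -0.50, adjusted p = 0.100; Acot13 at -0.67, adjusted p = 0.0629), and 1 of the 3 Acot13 clones did not pass by itself (-0.32). Acot1 and Acot2 are close relatives in sequence, and cDNA clones may not separate them. Acot9 rose: it stood at 1.30 and 0.33 in JA, 0.81 and 0.42 in JB, and 0.90 and 0.69 in Amy, with the Cy3 array the higher of each pair and a mean of 0.74 ± 0.11, 1.67-fold higher (adjusted p = 0.00542). The peroxisomal Acot8 did not pass at -0.25 ± 0.26 (adjusted p = 0.202).

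Genes of elongation, desaturation and NADPH supply were all below 0 in the mean, and 4 of 5 were called lower, with a median of -1.38. The 4 include Degs1, a desaturase of dihydroceramide, while Fads1, the fatty acid desaturase of the group, was not called (adjusted p = 0.253). Elovl6, which lengthens saturated and monounsaturated chains, read -1.41 and -1.69 in JA, -1.56 and -1.62 in JB, and -1.27 and -1.59 in Amy. The 3 lines were nearly level, with a mean of -1.52 ± 0.08, 2.87-fold lower (adjusted p = 6.77e-04). Elovl5, the elongase of polyunsaturated chains, gave -1.77 and -1.64 in JA, -0.80 and -1.49 in JB, and -0.996 and -1.74 in Amy, with a mean of -1.41 ± 0.28 (adjusted p = 0.00179). Malic enzyme, Me1, which supplies NADPH in the cytosol, stood at -1.16 and -1.56 in JA, -1.18 and -1.64 in JB, and -1.31 and -1.44 in Amy. Its SD over lines was the lowest of the 42 genes, with line means of -1.36, -1.41 and -1.38 for JA, JB and Amy, with a mean of -1.38 ± 0.025, 2.61-fold lower (adjusted p = 8.16e-04), and its 2 clones gave -1.45 and -1.32. The desaturases Fads1 and Degs1 differed between lines and are described with the lines.

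The 2 genes of sterol synthesis moved in opposite directions. Dhcr7, which carries out the last reduction to cholesterol, was the only one of the 42 genes at least 2-fold higher in every line. It read 1.12 and 1.54 in JA, 1.02 and 1.29 in JB, and 1.16 and 1.46 in Amy. The Cy5 array was the higher of each pair, and the mean was 1.26 ± 0.09, 2.40-fold higher (adjusted p = 0.00118). Sqle, the squalene epoxidase that acts earlier in the pathway, read -0.29 and -0.35 in JA, -0.88 and -0.76 in JB, and -0.46 and -0.52 in Amy. All 6 values were below 0 with little difference between dyes, and the mean of -0.54 ± 0.25 passed (adjusted p = 0.0270). The call of Sqle was lost with centred arrays (-0.42, adjusted p = 0.0643) and without JA (-0.65, adjusted p = 0.0651), JB (-0.40, adjusted p = 0.0774) or Amy (-0.57, adjusted p = 0.0936).

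Binding proteins were represented by Fabp3, the fatty acid binding protein of heart and muscle, and the only true apolipoprotein of the 42 was Apoa2, a constituent of high-density lipoprotein made by the liver. Fabp3 did not pass at -0.32 ± 0.81 (adjusted p = 0.429). Apoa2 was formally called higher at 0.68 ± 0.12 (adjusted p = 0.00726), yet its sign followed the dye in every line. The values were 2.13 and -0.71 in JA, 2.46 and -0.89 in JB, and 2.64 and -1.54 in Amy. With the line in Cy3 it averaged 2.41 and with the line in Cy5 -1.05, where it would be called lower, so the arrays give it no direction. The call was also lost without JA (0.67, adjusted p = 0.0548). Opposite signs in the 2 orientations in all 3 lines were seen for 1 of the 42 genes and for 4.58% of all features. A mean gap over 1 between the orientations, of whichever sign, was seen for 5 of the 42 (11.9%: Acsm2, Acss1, Apoa2, Fads1 and Plpp7) and for 6.16% of all features. The dye-swapped arrays correlated less over the 42 genes than over all features, at 0.758 against 0.888 in Amy, 0.775 against 0.815 in JB and 0.835 against 0.844 in JA, across genes that are not independent replicates.

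**Figure D2:**
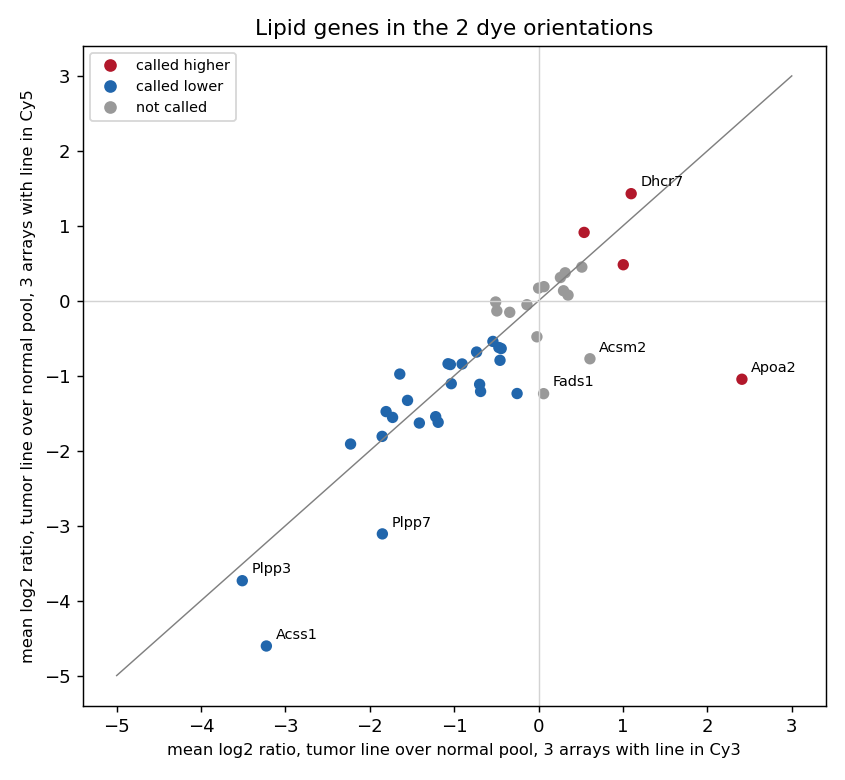
Mean log2 ratio of each of the 42 lipid genes over the 3 arrays with the line in Cy3 (x axis) and over the 3 arrays with the line in Cy5 (y axis), coloured by the limma call; the line marks equal values. Most genes lie near the line, Apoa2 stands at 2.41 against -1.05, and Acss1 and Plpp7 are lower than the line with the tumor line in Cy5.

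Of the 5 genes with the symbol stem of phospholipid phosphatases, Plpp3 and Plpp7 were lower and 3 were not called. Plpp3, a cell-surface enzyme that removes the phosphate from lysophosphatidic acid and related signaling lipids, read -3.52 and -3.58 in JA, -3.40 and -3.75 in JB, and -3.61 and -3.87 in Amy. Lines and dyes nearly coincided, and the mean of -3.62 ± 0.10 was 12.3-fold lower, with the lowest adjusted p of the 42 genes (6.02e-05). Plpp7, a relative found in the nuclear envelope of muscle, read -1.94 and -2.04 in JA, -2.15 and -4.82 in JB, and -1.46 and -2.47 in Amy. The Cy5 array of JB stood apart from the other 5, and the mean was -2.48 ± 0.87, 5.58-fold lower (adjusted p = 0.00338). Plpp1, which acts on the same lipids as Plpp3, averaged -0.10 ± 0.22 (adjusted p = 0.583), but its 2 clones passed in opposite directions, at 0.49 (adjusted p = 0.0430) and -0.68 (adjusted p = 0.00927). Plpp2 stood at 0.28 ± 0.46 (adjusted p = 0.275).

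**Figure D3:**
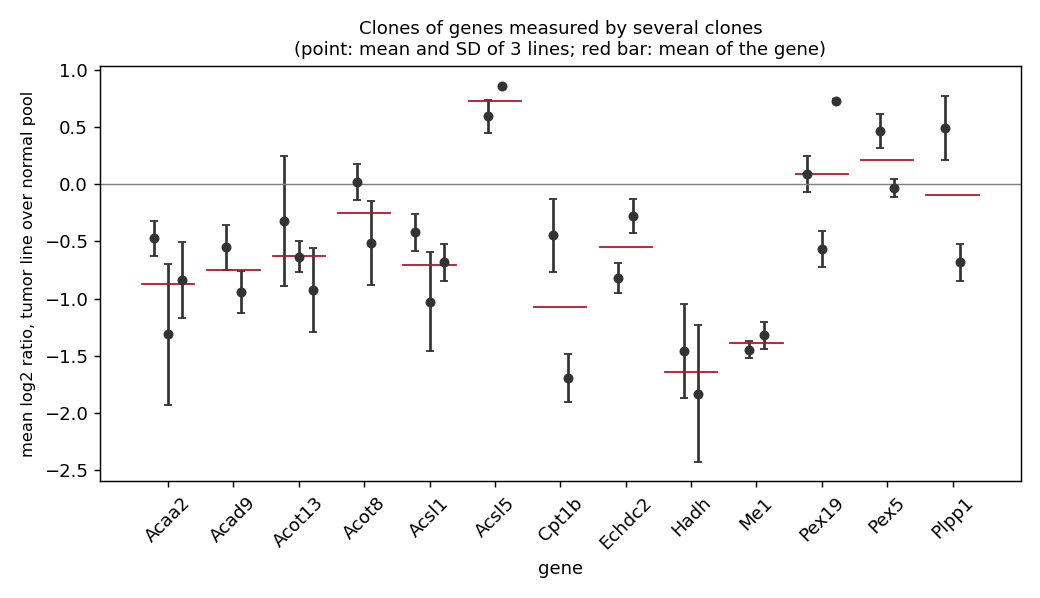
Mean log2 ratio of line over pool (y axis) for each clone of the 13 lipid genes measured by several clones (x axis), as the mean and SD of 3 lines; the red bar is the mean of the gene over its spots. The clones of 9 genes share a sign, as in Hadh and Me1, and those of Acot8, Pex19, Pex5 and Plpp1 do not.

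The 4 genes that share a stem but not the function were lower in 3 cases. Apobec2, a muscle protein of the cytidine deaminase family, read -1.79 and -1.76 in JA, -2.54 and -2.07 in JB, and -2.35 and -1.90 in Amy, with a mean of -2.07 ± 0.27, 4.20-fold lower (adjusted p = 5.73e-04). Cptp, which carries ceramide-1-phosphate between membranes, read -2.04 and -1.87 in JA, -1.80 and -1.76 in JB, and -1.72 and -1.80 in Amy, with a mean of -1.83 ± 0.11, 3.56-fold lower (adjusted p = 4.18e-04). Apool, a protein of the inner mitochondrial membrane, averaged -0.95 ± 0.18 (adjusted p = 0.00345), and Apold1, known from vascular endothelium, did not pass at -0.26 ± 0.58 (adjusted p = 0.389). Leaving these 4 out, 21 of 38 genes were lower, 4 were higher and the median was -0.57.

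The second question was how far the tumor lines differed from each other. A line has no replicate of its own, so single lines were described by a 2-fold change on both arrays, with no test. In JA 15 of the 42 genes were at least 2-fold lower (13.6% of all features were), in JB 10 (11.4% of all features) and in Amy 10 (12.0% of all features). The higher count in JA depended on the threshold: at 1.5-fold the counts were 20 in JA, 20 in JB and 16 in Amy. The share of all features at 1.5-fold was not counted. At least 2-fold higher on both arrays was Dhcr7 alone in each line, against 7.42% of all features in JA, 5.93% in JB and 4.97% in Amy. The genes Acss1, Apobec2, Cptp, Eci1, Elovl6, Me1, Plpp3 and Plpp7 met the 2-fold rule for lower in all 3 lines. How many of all features met it in all 3 lines was not counted. The 3 line means of a lipid gene spanned a median of 0.49 between lowest and highest, beside 0.44 over all features.

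Each line was set apart from both others by at least 2-fold, within each dye orientation, in 1 of the 42 genes, against 0.362% of all features in JA, 1.99% in JB and 0.501% in Amy. In JA this was Degs1, the desaturase that turns dihydroceramide into ceramide. Degs1 read -1.92 and -1.72 in JA, -0.36 and -0.30 in JB, and -0.86 and -0.53 in Amy, so that JA lay 1.48 below JB and 1.12 below Amy in the mean of the dyes. Over the 3 lines it averaged -0.95 ± 0.77 (adjusted p = 0.0457), a call lost without JA (-0.51, adjusted p = 0.106), without Amy (-1.07, adjusted p = 0.113) and with centred arrays (-0.83, adjusted p = 0.0650).

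In JB it was Fads1, a desaturase of polyunsaturated fatty acids. Fads1 stood at -0.72 and -2.12 in JA, 1.45 and -0.28 in JB, and -0.55 and -1.31 in Amy, with JB 2.01 above JA and 1.52 above Amy. The array with the line in Cy5 was the lower of each pair, so the sign in JB is not settled, while its place above the other lines held in both orientations. Over the 3 lines Fads1 did not pass (-0.59 ± 1.05, adjusted p = 0.253), and without JB it did (-1.18, adjusted p = 0.00315). In Amy it was the phosphatase Plpp5, at 0.997 and 0.80 in JA, 1.09 and 0.90 in JB, and -0.55 and -0.34 in Amy. JA and JB lay above the pool on both arrays and Amy below it, and the mean of 0.48 ± 0.81 did not pass (adjusted p = 0.241), though it did without Amy (0.95, adjusted p = 0.0204).

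Lines of opposite sign on both of their arrays were found for 5 of the 42 genes (11.9%; 10.4% of all features): Plpp5, Fabp3, Acsl3, Apold1 and Plpp1. Fabp3 read -0.55 and 0.60 in JA, -1.29 and -1.19 in JB, and 0.35 and 0.19 in Amy, with JB lowest on both dyes. Acsl3 read -0.04 and -0.22 in JA, -0.60 and -1.29 in JB, and 0.59 and 0.07 in Amy. JB was again the lowest line and Amy the highest.

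**Figure D4:**
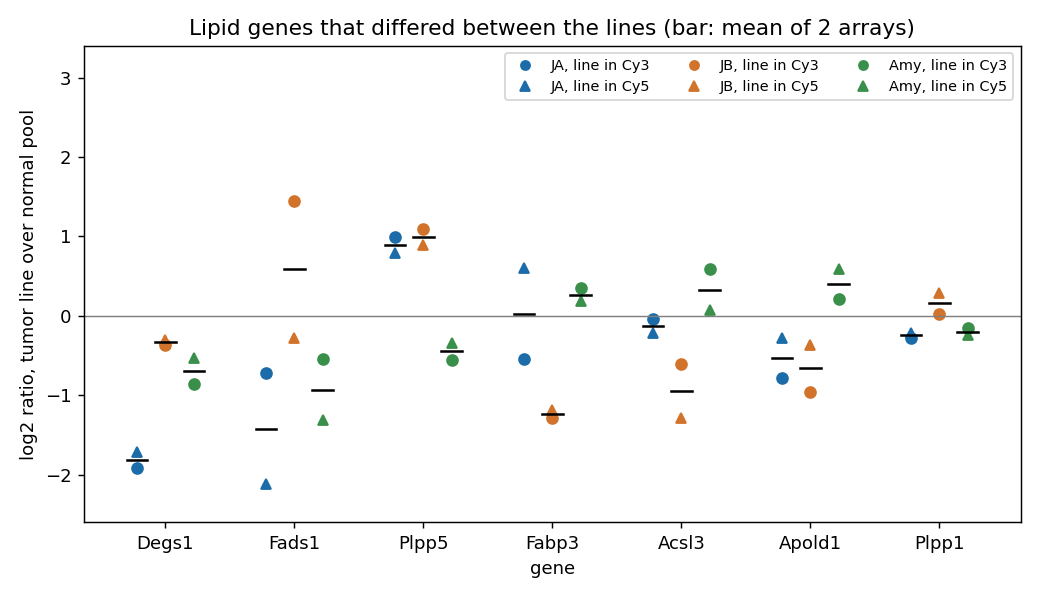
Log2 ratio of line over pool (y axis) on each array for the 7 lipid genes that set 1 line apart or had lines of opposite sign (x axis), coloured by line and shaped by dye, with a bar at the mean of the 2 arrays. JA is lowest for Degs1, JB is highest for Fads1 and lowest for Fabp3 and Acsl3, and Amy alone lies below 0 for Plpp5.

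Other genes of lipid metabolism were taken from a list of 104, of which 36 were measured. Of these, 15 were lower, 5 were higher and 16 were not called, with a median of -0.34, beside 32.8% lower and 20.7% higher among all features. The genes that fell included the fatty acid receptor Cd36 at -7.36 ± 0.88, the glucosylceramide synthase Ugcg at -2.41 ± 0.28, the cholesterol-esterifying enzyme Soat1 at -1.84 ± 0.29 and the peroxisomal fatty acid transporter Abcd3 at -1.81 ± 0.17. Ppara, the receptor that controls fatty acid oxidation, was lower at -1.17 ± 0.33 (adjusted p = 0.00381). Also lower were the lipase inhibitor Angptl4 at -1.81 ± 0.43, the pyruvate dehydrogenase kinase Pdk4 at -1.40 ± 0.56, the peroxisomal oxidation enzyme Ehhadh at -1.29 ± 0.36 and the lipid droplet coat protein Plin2 at -1.16 ± 0.23. The acid sphingomyelinase Smpd1 fell to -1.70 ± 0.09.

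Partners of the described enzymes did not all follow them. The fatty acid synthase Fasn and the desaturase Scd2, which act beside Elovl6 in making new fatty acids, were higher at 0.80 ± 0.61 (adjusted p = 0.0417) and 0.93 ± 0.49 (adjusted p = 0.0158), and Idh1, which like Me1 yields NADPH in the cytosol, was higher at 0.96 ± 0.42 (adjusted p = 0.0102). All 3 were highest in JB, at 1.49, 1.47 and 1.44 in the mean of its dyes. In the sterol pathway Lss, the cyclase that follows Sqle, fell to -0.78 ± 0.28 (adjusted p = 0.00980), while Sc5d, which acts just before Dhcr7, stood at -0.27 ± 0.08 (adjusted p = 0.0994) and Mvd, of the mevalonate part, at 0.26 ± 0.39 (adjusted p = 0.263) with signs that differed between the dyes in JA and JB. In oxidation, the carnitine carrier Slc25a20 stood at 0.09 ± 0.29 (adjusted p = 0.642) and the peroxisomal enzyme Hsd17b4 at -0.29 ± 0.33 (adjusted p = 0.189), neither of them called, and Hsd17b10, a dehydrogenase that acts on the same kind of substrate as Hadh, was lower at -1.15 ± 0.47 (adjusted p = 0.00735). The remaining listed genes called higher were Crat at 0.65 ± 0.20 (adjusted p = 0.0118) and Abcg1 at 0.78 ± 0.40 (adjusted p = 0.0179). Crat lay below 0 on the Cy5 array of JA (-0.09).

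**Figure D5:**
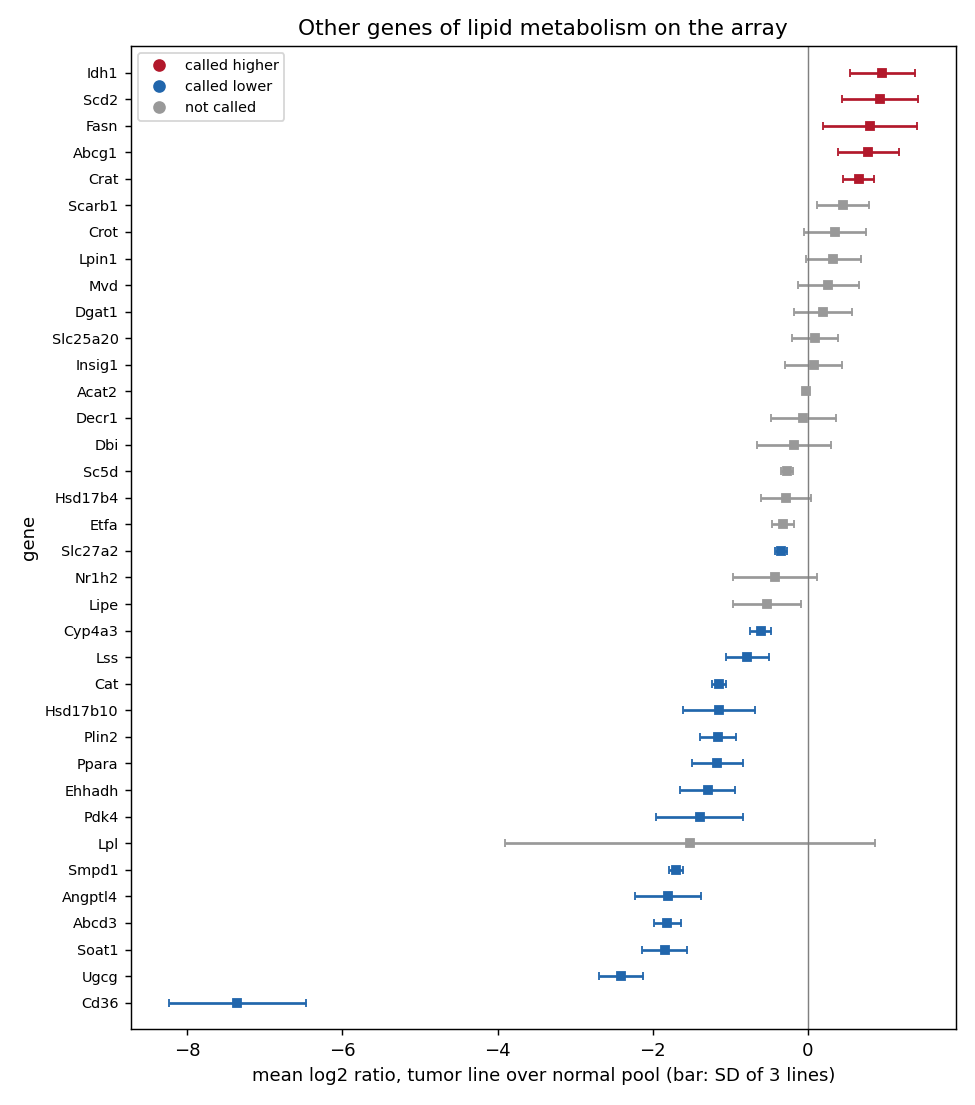
Mean log2 ratio of line over pool (x axis, with the SD of 3 lines) for the 36 measured genes of a list of other lipid genes (y axis), coloured by the limma call. Cd36 lies lowest at -7.36, Ppara and several oxidation genes lie between -2 and -1, and Fasn, Scd2 and Idh1 lie on the other side of 0.

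Markers of other cell types were also looked at, and they did not all move in the same direction. All 7 measured of 9 fibroblast markers were lower, from -9.00 for Dcn to -1.73 for Thy1, as were all 4 measured of 8 muscle markers, from -5.11 for Myl11 to -1.82 for Tpm1. Among leukocyte markers 4 of 5 measured were lower and Tyrobp was higher, with a range of -4.06 to 0.67, and Cd53, one of those called lower, changed sign with the dye in every line. The 2 measured adipocyte markers were not called (Lpl -1.52, Lipe -0.53), and Lpl was lower in JA and Amy, at -2.54 and -3.23, and higher in JB, at 1.20. Of the liver markers Alb was lower at -0.55 and Ahsg, at 0.04, was not called. Only 2 of 8 epithelial markers were measured, Krt8 at 0.41 and Lgals7 at -5.82, so the esophageal identity of the lines could hardly be checked. The part of these markers in the lipid gene ratios, among them those of Cpt1b, Plpp7 and Apobec2, genes best known from muscle, was not tested.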

How the data were processed

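The authors deposited 1 log2 ratio for each of 16128 spots and array; base 2 was taken from the range (lowest value -12.7), and base, centring and direction are not stated. Normalization and spot filters are not given in the sources used here. Without spot intensities, dim channels cannot be told from true extremes. Array medians ran from -0.17 to -0.05, and r between duplicate spots from 0.907 to 0.949. No sign was turned, since both orientations of a line correlated positively over the 42 genes (r = 0.758 to 0.835).

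Spots were averaged per platform gene symbol, and clones without a single symbol stayed as features (7180 in all). All 42 symbols matched RefSeq (GRCr8). Each line's dye-swapped pair was averaged, and the mean of 3 lines was tested against 0 with limma 3.58.1 in R 4.3.3 (lmFit, eBayes, two-sided, Benjamini-Hochberg over all features, threshold 0.05), with no filter on low values. The procedure was tested on simulated data. Figures were drawn with matplotlib 3.10.9.

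The genes, lists and alternatives were chosen with earlier results of these data known. By the rule for named genes, every array is printed for genes called with 1 sign throughout and a mean of at least 1 in size, for those setting a line apart, and for the leading gene of a role, and up to 10 other lipid genes are named by size of mean. The motifs AGGTCA and GGGCGG, the promoters shown, the placing of Cptp and Eci3, and further named list genes were chosen after the values were seen.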

Additional observations from a re-analysis of the deposited data

Results flagged for a closer look

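In 5 lipid genes (11.9%, beside 10.4% of all features), lines lay on opposite sides of the pool on both arrays of each. These differences between lines were not tested, because a line has no replicate. Plpp5 was above 0 in JA and JB and below 0 in Amy, with differences of 1.35 for JA and 1.44 for JB on the log2 scale. Fabp3 was above 0 in Amy and below 0 in JB, a difference of 1.51. Acsl3 was also above 0 in Amy and below it in JA and JB, with differences of 0.46 and 1.28. Apold1 showed the same arrangement of lines, with Amy 0.94 above JA and 1.07 above JB. Plpp1 was above 0 in JB and below 0 in JA and Amy, by 0.40 and 0.35, and its 2 clones had opposite signs.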

How the results depend on the processing

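Of the 28 called genes, 18 kept sign and call under 12 of the 13 alternative fits, all except the one without moderated variances, and 9 under all 13: Acaa2, Acsl5, Acss1, Apobec2, Cptp, Dhcr7, Elovl6, Me1 and Plpp3. Without moderation 9 genes were called lower and 2 higher (10.3% and 4.18% of all features), a test with few degrees of freedom. The replicate block, with dye orientation paired across lines and line as a random block, gave 23 lower and 4 higher and lost Acot1. Its shares of all features were 32.8% and 21.7%. Leaving out a line gave 18 to 24 lower and 3 to 5 higher, beside 19% to 32% and 9.87% to 19.5% of all features. Signs that turned belonged to genes that were not called, Apoa2 excepted. Apoa2 turned with the line in Cy5 (-1.05). Acsm2 turned with arrays centred (0.0402) or scaled (0.0612), with the line in Cy3 (0.61) and without JB (-0.36 to 0.35 over the lines left out). Plpp1 turned with arrays centred (0.0275) or scaled (0.0274) and with its smaller clone (0.49). Fads1 turned with the line in Cy3 (0.0594), Acot8 (0.0189) and Pex5 (-0.0341) with the smaller clone, and Acsl3 (-0.54 to 0.10 over the lines left out), Cpt1a (-0.0207 to 0.39) and Fabp3 (-0.61 to 0.15) without JB. At 1.5-fold on both arrays, 2 genes were higher in JA, 4 in JB and 2 in Amy, and 20 in JA, 20 in JB and 16 in Amy were lower. With centred arrays 2 were higher in JB. The shares of all features were not counted for these settings of the single lines. The cause of these changes was not tested. The filter on dye-swap differences over 2 left out Acsm2, Apoa2 and Plpp7, and a called gene left out was counted as not kept. Plpp7 kept sign and call in every other fit with moderated variances. Among genes with several clones 61.5% were lower and 7.69% higher, beside 32.8% and 20.7% of all features, a comparison added after the data were seen. Signal over background could not be judged without intensities.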
